A study of Mus musculus with 9 samples.

Results

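The genes described here encode 6 STAT transcription factors (Stat2, Stat3, Stat4, Stat5a, Stat5b and Stat6) and 3 JAK kinases (Jak1, Jak2 and Tyk2). They were chosen by gene symbol, which gave 9 of the 55335 genes in the expression table. Their mRNA was measured by RNA-seq in bone marrow-derived macrophages (BMDMs). Marrow came from wild-type male C57BL/6 mice aged 4 to 6 weeks, and M-CSF, the macrophage growth factor, was given at 20 ng/mL for 5 days. In the M+AnxA5 group, BMDMs received Annexin A5 (AnxA5), a phospholipid-binding protein, with LPS, a bacterial cell wall component, and IFN-γ, a lymphocyte cytokine. In the Model group, they received LPS at 1 µg/mL and IFN-γ at 30 ng/mL without AnxA5. In the Control group, they received neither stimulus nor AnxA5. The methods give AnxA5 at 0.5, 1 and 2 µg/mL for the cell experiments and do not name the one that was sequenced. All cells were collected at 6 h, and each group had 3 libraries. No source used here says that the libraries of a group came from separate mice or cultures, so each p-value measures only the spread between these libraries.

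JAK kinases sit on the inner tails of cytokine receptors. When a cytokine brings receptor chains together, the kinases phosphorylate each other, the receptor and the STAT proteins bound to it, and the STAT proteins then pair up, enter the nucleus and switch on genes. In macrophages, IFN-γ signals through Jak1 and Jak2, and type I interferon signals through Jak1 and Tyk2. LPS acts through TLR4, which has no JAK kinase, but the cytokines it induces act back on the same cells through JAK-coupled receptors. The activity of this pathway is set by phosphorylation, which RNA-seq does not measure, so all values below are mRNA levels.

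Levels are given in FPKM, in which sequenced fragments are scaled to transcript length and to library size, so that genes can be compared with each other. The estimated depth was 25.9M to 36.1M fragments per library (M, mega), and a single fragment on 1 kb of transcript equals 0.0277 to 0.0386 FPKM at that depth. Between 9969 and 11476 genes reached 1 FPKM in a library. The ribosomal entries Gm23935 and AY036118 took 0.530% to 7.47% of the summed FPKM, with the highest share in replicate 2 of every group. The macrophage label was checked with 8 marker genes, all of which were at 1 FPKM or more in every group, and in Model 4 of them (Adgre1, Mertk, Fcgr1 and Cd14) were above and 4 (Lyz2, Cd68, Csf1r and Itgam) below every Control library. Their summed level was 6999 to 7896 FPKM in M+AnxA5, 7828 to 8724 FPKM in Model and 13411 to 14474 FPKM in Control, and most of that sum was Lyz2, with a mean of 5792 FPKM in M+AnxA5, 6388 FPKM in Model and 12129 FPKM in Control. In such bulk samples, fewer cells of a type and less RNA per cell cannot be told apart.

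Stimulation with LPS and IFN-γ changed the amount and the makeup of this gene family (Model against Control). Jak2 and Stat2 rose most, Stat3, Tyk2 and Stat4 rose less, Stat6 fell, and Jak1, Stat5a and Stat5b were not called. A gene was called where limma gave an adjusted p under 0.05 (Benjamini-Hochberg over all 11657 genes tested) and the change exceeded 1.2-fold. Fold changes are on the log2(FPKM + 1) scale, which understates the change of low genes. Of the 9 members, 5 were called higher, where 16.5% of all genes tested were, and 1 was called lower, against 60.3% of all genes. Stat4, among the 5, passed the filter of 1 FPKM in 3 libraries through its stimulated libraries only. Its rise was therefore partly built into its selection. The 6 called members stand beside a background of 76.8% of genes called in either direction. The libraries of Model and Control did not overlap for 8 of 9 members, and 83.8% of all genes showed the same. The median log2 fold change was 0.82 over the members and -0.45 over all genes tested.

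With AnxA5 added to the stimuli, 0 of the 9 members were called (M+AnxA5 against Model). The background in this comparison was 2.76% of genes called, with 1.95% higher and 0.815% lower. By limma, 2 members had an unadjusted p under 0.05, Jak1 and Tyk2, and no other tool was run. Jak1 passed the adjusted p but its change was under the fold limit. The libraries of M+AnxA5 and Model did not overlap for 3 members, Jak1, Tyk2 and Stat5a, where 24.8% of all genes did not overlap. The median log2 fold change was -0.06 over the members and -0.02 over all genes.

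M+AnxA5 against Control, a comparison that shares its libraries with the others, called 5 members higher and 1 lower, and these were the same genes as in Model against Control. Here too the rise of Stat4, among the 5, was partly built in by the filter. In this comparison 77.5% of all genes were called, 16.4% higher and 61.1% lower. The libraries did not overlap for 7 of 9 members, against 84% of all genes. By limma the log2 fold changes were 2.99 for Jak2, 2.73 for Stat2, 1.73 for Stat3, 0.82 for Tyk2, 0.60 for Stat4 and -0.32 for Stat6. The median was 0.60 over the members and -0.46 over all genes.

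**Figure D1:**
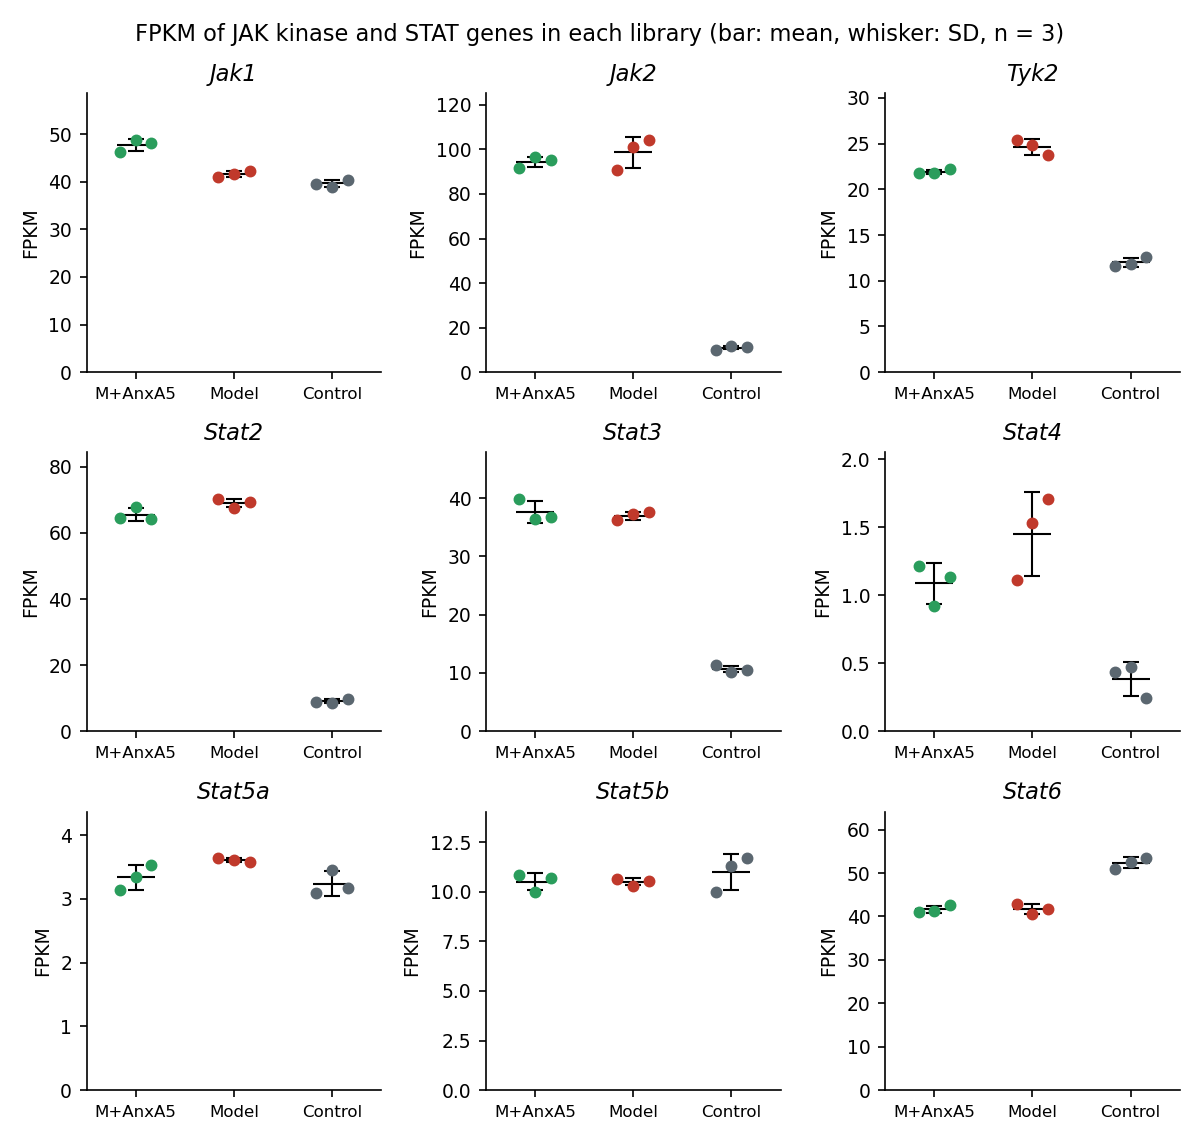
FPKM of the 3 kinase genes and 6 STAT genes in each of 9 libraries (points), with the mean (bar) and SD (whisker, n = 3) of M+AnxA5, Model and Control; every axis starts at 0. Jak2, Tyk2, Stat2, Stat3 and Stat4 lie above Control in all 6 stimulated libraries, Stat6 lies below it, and Jak1 is highest in the M+AnxA5 libraries.

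Among the kinases, Jak2, which transmits IFN-γ, IL-6 and IL-12 signals and lies on chromosome 19 (GRCm38, chr19:29251828-29313080, plus strand), showed the largest change of the family. It had 91.8, 96.4 and 95.1 FPKM in M+AnxA5 replicates 1 to 3, 90.7, 101.1 and 104.3 FPKM in Model, and 10.2, 11.6 and 11.4 FPKM in Control. Every stimulated library was far above every Control library, and the M+AnxA5 libraries lay inside the Model range. Jak2 was 8.94 times as high in Model as in Control (log2 fold change 3.05, SE 0.06, adjusted p = 5.59e-10 by limma). With AnxA5 the difference from Model was -0.06 (95% interval -0.21 to 0.09, adjusted p = 0.700 by limma). In Control it was a gene of middle rank, and in both stimulated groups it had the highest level of the 9 genes.

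Jak1, the kinase shared by the interferon and the IL-6 family receptors (chr4:101152367-101265282, minus strand), had 46.2, 48.8 and 48.2 FPKM in M+AnxA5, 41.0, 41.5 and 42.3 FPKM in Model, and 39.5, 39.0 and 40.5 FPKM in Control. The 3 groups did not overlap, but Model and Control lay close together. Model differed from Control by 0.07 (95% interval -0.02 to 0.15, adjusted p = 0.115 by limma), and only upper-quartile scaling called it higher (0.32). M+AnxA5 was 1.15 times Model, with a log2 fold change of 0.19 (SE 0.04, 95% interval 0.11 to 0.28, adjusted p = 0.0290 by limma). Over the alternatives the adjusted p of this difference ranged from 0.0201 to 0.310, and the estimate from 0.17 to 0.22. The adjusted p was over 0.05 without Model replicate 1, 2 or 3 (0.0843, 0.103 and 0.0743) and without M+AnxA5 replicate 2 or 3 (0.106 and 0.118). With a replicate block it was 0.0718. Against Control, Jak1 in M+AnxA5 was higher by 0.26 (SE 0.04, adjusted p = 1.41e-04 by limma), just under the fold limit, and it passed that limit without Control replicate 3 (0.28) or without M+AnxA5 replicate 1 (0.28), with TPM (0.34) or upper-quartile scaling (0.51), and with a pseudocount of 0.1 (0.27) or 0.5 (0.26).

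Tyk2, the kinase of the type I interferon, IL-10 and IL-12 receptors (chr9:21104068-21131243, minus strand), had 21.7, 21.8 and 22.2 FPKM in M+AnxA5, 25.4, 24.9 and 23.7 FPKM in Model, and 11.6, 11.8 and 12.6 FPKM in Control. All stimulated libraries were above Control, and the M+AnxA5 libraries were all below the Model libraries. Tyk2 rose 2.05-fold in Model (log2 fold change 0.98, SE 0.04, adjusted p = 7.27e-08 by limma). M+AnxA5 was 0.888 times Model, a log2 fold change of -0.16 (SE 0.04, 95% interval -0.27 to -0.06, adjusted p = 0.0985 by limma), which was not called. The ratio of Tyk2 to Jak1 FPKM was 0.447 to 0.471 in M+AnxA5, 0.561 to 0.619 in Model and 0.294 to 0.311 in Control. That ratio, described here without a test, separated the 3 groups without overlap. The separation follows from the Jak1 and Tyk2 levels already given and adds no support to them. Other ratios between members were also computed and are not given.

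**Figure D2:**
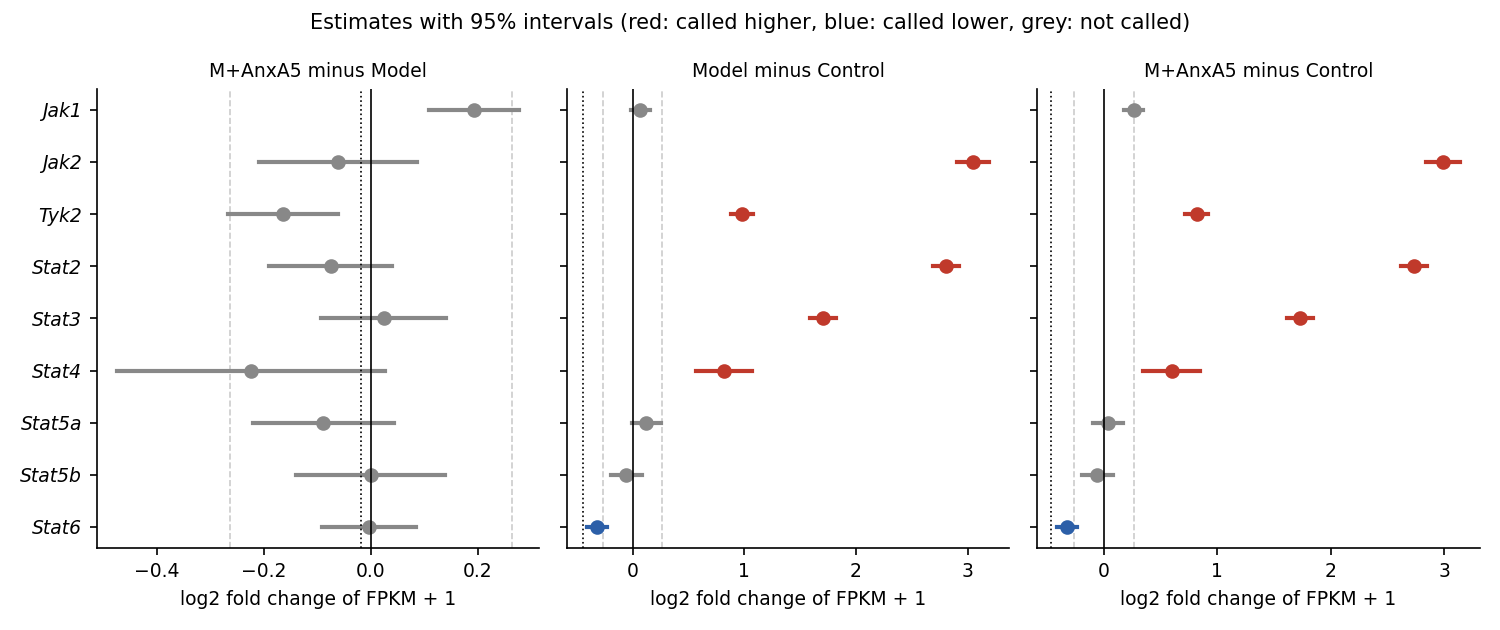
Log2 fold change of FPKM + 1 (point) with its 95% interval (line) for each gene in M+AnxA5 minus Model, Model minus Control and M+AnxA5 minus Control, from limma with 3 libraries a group; dashed lines mark a 1.2-fold change, the dotted line the median of all genes, and the first panel has a narrower axis. Jak2 and Stat2 are near 3 against Control, and no gene is called in M+AnxA5 minus Model.

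Of the factors, Stat2 is the subunit that, with Irf9, carries the type I interferon complex to DNA (chr10:128270559-128292849, plus strand). It had 64.6, 67.8 and 64.1 FPKM in M+AnxA5, 70.3, 67.7 and 69.3 FPKM in Model, and 8.72, 8.58 and 9.72 FPKM in Control. M+AnxA5 and Model overlapped by 1 library each, and both were far from Control. Stat2 rose 7.67-fold in Model (log2 fold change 2.81, SE 0.05, adjusted p = 2.22e-10 by limma). The difference of M+AnxA5 from Model was -0.07 (95% interval -0.19 to 0.04, adjusted p = 0.512 by limma).

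Because several of these genes moved together under the stimuli, the promoters of all members (RefSeq, GRCm38.p6, 250 bases before to 50 bases after each start) were searched on both strands for the core letters of sites that STAT complexes are known to bind. The interferon-stimulated response element was taken as GAAA, any 2 bases, GAAA, and the gamma-activated site as TTC, any 3 bases, GAA. All 9 members had an annotated promoter, and there were 12 promoters among them. The first pattern was in 2 of the 12, against 3.44% of 32851 mouse promoters, and the second in 0 of the 12, against 8.3%. A match is a description of the letters and not a shown binding site. Both upstream windows with the match in capitals are given from 5′ to 3′ on the plus strand, as they are the only matches among the members. In Stat2 (chr10:128270248-128270497) the match lies 222 to 213 bases before the start, and in Stat4 (chr1:52007990-52008239) it lies 97 to 88 bases before the second of its annotated starts.
Stat2: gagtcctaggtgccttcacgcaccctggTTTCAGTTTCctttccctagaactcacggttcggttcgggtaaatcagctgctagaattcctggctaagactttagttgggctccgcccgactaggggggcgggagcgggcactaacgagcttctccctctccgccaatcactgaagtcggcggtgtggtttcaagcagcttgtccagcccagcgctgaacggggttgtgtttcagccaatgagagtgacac
Stat4: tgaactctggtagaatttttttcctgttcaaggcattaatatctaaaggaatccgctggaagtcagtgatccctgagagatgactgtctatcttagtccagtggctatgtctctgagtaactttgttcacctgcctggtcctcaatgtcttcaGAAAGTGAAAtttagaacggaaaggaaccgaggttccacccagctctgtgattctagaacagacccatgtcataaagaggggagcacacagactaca

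Stat3, which carries IL-6 and IL-10 signals (chr11:100885098-100939540, minus strand), had 39.8, 36.4 and 36.7 FPKM in M+AnxA5, 36.2, 37.2 and 37.5 FPKM in Model, and 11.3, 10.2 and 10.4 FPKM in Control. The stimulated groups overlapped, and Control was below both. Stat3 rose 3.47-fold in Model (log2 fold change 1.71, SE 0.05, adjusted p = 4.91e-09 by limma). With AnxA5 the difference from Model was 0.02 (95% interval -0.09 to 0.14, adjusted p = 0.870 by limma).

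Stat4, the factor of IL-12 signalling that is best known from T cells and NK cells (chr1:51987148-52107189, plus strand), was the lowest of the family. It had 1.21, 0.921 and 1.14 FPKM in M+AnxA5, 1.11, 1.53 and 1.71 FPKM in Model, and 0.435, 0.475 and 0.241 FPKM in Control. Stimulated libraries were above Control, and M+AnxA5 overlapped with Model. Stat4 rose 3.78-fold in Model by the ratio of the means (log2 fold change on the FPKM + 1 scale 0.82, SE 0.11, adjusted p = 9.78e-05 by limma). It passed the filter of 1 FPKM in 3 libraries through its stimulated libraries only, so some difference from Control was built into its selection. The difference of M+AnxA5 from Model was -0.22, with a wide 95% interval of -0.47 to 0.03 (adjusted p = 0.347 by limma).

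Markers of other cell types were also read, and those of T cells, NK cells and dendritic cells are set beside Stat4. Neutrophil and fibroblast lists had higher sums. The 8 neutrophil markers summed to 301.3 to 317.4 FPKM in M+AnxA5, 276.2 to 361.8 FPKM in Model and 245.1 to 323.9 FPKM in Control. The 4 fibroblast markers summed to 60.5 to 107.8 FPKM in M+AnxA5, 70.5 to 107.6 FPKM in Model and 93.3 to 155.9 FPKM in Control. Which cells this mRNA came from was not tested. The summed level of 7 T cell markers was 2.08 to 2.91 FPKM in M+AnxA5, 1.72 to 2.62 FPKM in Model and 1.25 to 2.06 FPKM in Control, and 1 of the 7 averaged 1 FPKM or more in each group. That marker was Lck in the stimulated groups and Cd4 in Control, while Cd3e, which defines T cells, was at most 0.0149 FPKM in any library. The 5 NK cell markers summed to 0.0208 to 0.126 FPKM in M+AnxA5, 0.0298 to 0.0694 FPKM in Model and 0.361 to 0.553 FPKM in Control, and Gzma was listed at 0 in all 9 libraries. The 4 dendritic cell markers summed to 3.02 to 3.46 FPKM in M+AnxA5, 4.62 to 5.34 FPKM in Model and 0.0970 to 0.219 FPKM in Control. In the stimulated groups nearly all of that was Xcr1, while Flt3 was at most 0.0216 FPKM. The part of dendritic cell markers in the Stat4 values was not tested.

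Stat5a (chr11:100859351-100885169, plus strand) and Stat5b (chr11:100780731-100850724, minus strand) carry signals of GM-CSF and other growth factors, and they are neighbours with 8626 bases between them. Their coding sequences are 90.71% identical over 2294 aligned bases, against 58.3% to 65.3% for the other pairs of STAT genes here. The longest run shared letter for letter is 324 bases, while the other pairs share at most 23. A fragment inside that run cannot be assigned to either gene, so the split between Stat5a and Stat5b is uncertain. The first 60 bases of the run, bases 571 to 630 of both coding sequences, are shown as an example of such a stretch.
Stat5a and Stat5b: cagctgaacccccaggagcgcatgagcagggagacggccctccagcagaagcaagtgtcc

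Stat5a had 3.14, 3.34 and 3.54 FPKM in M+AnxA5, 3.64, 3.61 and 3.58 FPKM in Model, and 3.09, 3.46 and 3.18 FPKM in Control. Model lay just above both other groups, with no overlap. The difference of Model from Control was 0.12 (95% interval -0.01 to 0.25, adjusted p = 0.0781 by limma), which was called higher with upper-quartile scaling (0.32) and quantile normalization (0.57). That of M+AnxA5 from Model was -0.09 (95% interval -0.22 to 0.04, adjusted p = 0.491 by limma). Stat5b had 10.8, 10.0004 and 10.7 FPKM in M+AnxA5, 10.7, 10.3 and 10.5 FPKM in Model, and 9.97, 11.3 and 11.7 FPKM in Control. All groups overlapped. Stat5b differed by -0.06 between Model and Control (95% interval -0.20 to 0.08, adjusted p = 0.407 by limma), with the opposite sign under 3 other scalings (0.021 to 0.25, not called), and by 0.00 in size between M+AnxA5 and Model (95% interval -0.14 to 0.14, adjusted p = 0.997 by limma). The last 72 bases of Stat5a overlap the end of Stat3 on the other strand, and whether strand was used in counting is not given in the sources used here.

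Stat6, the factor of IL-4 and IL-13 signalling and of alternative macrophage activation (chr10:127642986-127660957, plus strand), was the only member that fell. It had 41.1, 41.2 and 42.6 FPKM in M+AnxA5, 42.9, 40.5 and 41.7 FPKM in Model, and 51.0, 52.6 and 53.5 FPKM in Control. Every stimulated library was below every Control library, and the stimulated groups overlapped. Model was 0.796 times Control (log2 fold change -0.32, SE 0.04, adjusted p = 4.64e-05 by limma). This change was smaller than the median of all genes, -0.45, and its call depended on scaling: the estimate was -0.24 with TPM scaling and -0.07 with upper-quartile scaling, both not called, and -0.42 with quantile normalization, still called. M+AnxA5 and Model differed by 0.00 in size (95% interval -0.09 to 0.09, adjusted p = 0.982 by limma).

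The order of levels within the family differed between stimulated and unstimulated cells. In M+AnxA5 the order from high to low was Jak2, Stat2, Jak1, Stat6, Stat3, Tyk2, Stat5b, Stat5a and Stat4, and no neighbours in that order overlapped. In Model it was the same except that Stat6 (mean 41.7 FPKM) came just before Jak1 (mean 41.6 FPKM), and their ranges overlapped. In Control, Stat6 (52.4 ± 1.27 FPKM, SD, n = 3) was first and Jak1 (39.6 ± 0.753 FPKM) followed. Tyk2 came next, then Jak2, Stat5b and Stat3, whose neighbouring ranges overlapped, then Stat2, Stat5a and Stat4.

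The summed FPKM of the 6 STAT genes was 158.8 to 160.7 in M+AnxA5, 160.8 to 164.8 FPKM in Model and 84.5 to 88.8 FPKM in Control. The makeup of that sum differed between stimulated and Control libraries, most for Stat6 and Stat2. A share also falls when other members rise. Stat2 held 40.2% to 42.5% of it in M+AnxA5, 42.1% to 42.6% in Model and 9.90% to 10.95% in Control. Stat6 held 25.6% to 26.8% in M+AnxA5, 25.2% to 26.0% in Model and 60.3% to 60.7% in Control. The Stat6 share in Control was almost the same in its 3 libraries. The 3 kinases summed to 159.7 to 167.0 FPKM in M+AnxA5, 157.2 to 170.3 FPKM in Model and 61.2 to 64.5 FPKM in Control. Jak1 held 28.9% to 29.2% of the kinase sum in M+AnxA5, 24.8% to 26.1% in Model and 62.5% to 64.5% in Control, while Jak2 held 57.5% to 57.7% in M+AnxA5, 57.7% to 61.2% in Model and 16.6% to 18.5% in Control. These shares need no scaling between libraries, and they are descriptions with no test.

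**Figure D3:**
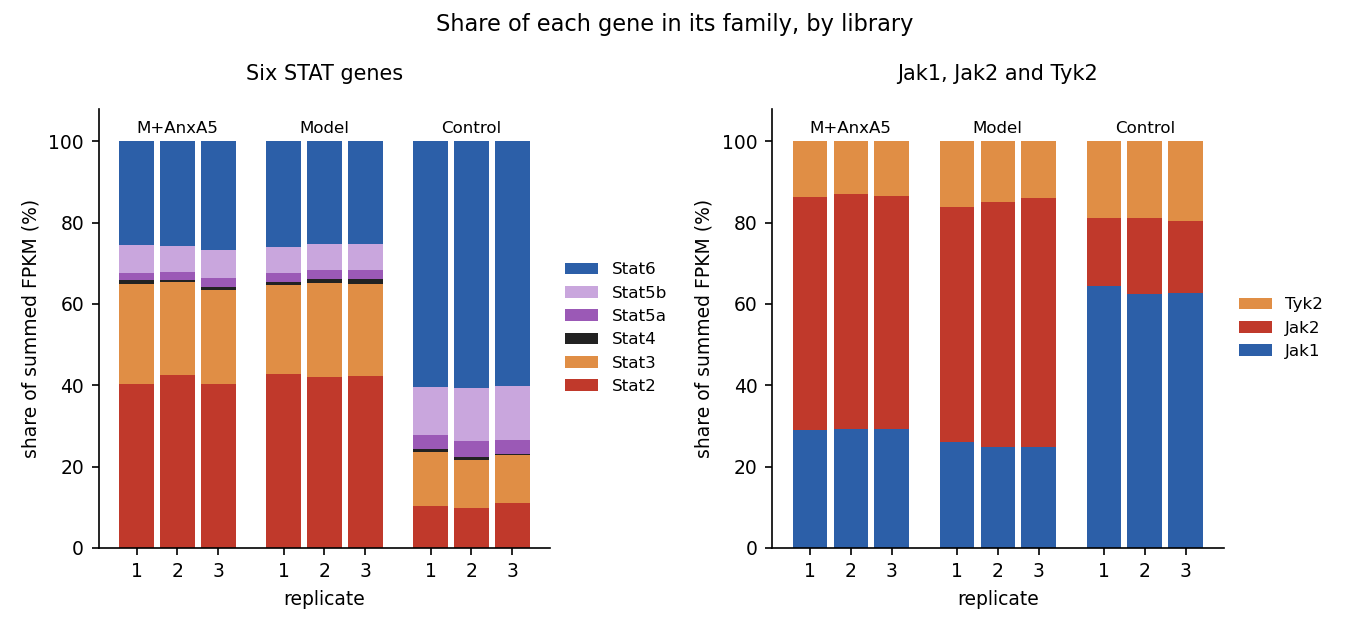
Share of each gene in the summed FPKM of the 6 STAT genes (left) and of the 3 kinase genes (right), as percent, for replicates 1 to 3 of M+AnxA5, Model and Control. Stat6 and Jak1 take most of their family in Control (at least 60.3% and 62.5%), and Stat2 and Jak2 hold the largest share in all stimulated libraries.

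The receptors, ligands, brakes and partners of the pathway, and genes known to be driven by each factor, were read from lists chosen with earlier results of these data known. Their counts are descriptions, to be read beside the 76.8% of all genes called in Model against Control (16.5% higher and 60.3% lower), and the lists were not tested against each other. A gene that passed the filter of 1 FPKM in 3 libraries only with the stimulated libraries was selected partly for being high there, so such genes are counted apart. The receptor list held 30 chains of cytokine receptors that signal through JAK kinases, and 22 were tested. Model had 13 higher and 6 lower than Control, with a median log2 fold change of 0.54. Of the 13, 5 (Il12rb1, Il12rb2, Il15ra, Il23r and Osmr) did not pass the filter on Control libraries alone. With no filter 14 receptor chains were higher and 9 lower. Il2rg, the common chain of the IL-2 family receptors, rose to 151 ± 1.5 FPKM in Model, against 26.1 ± 0.676 FPKM in Control (log2 fold change 2.49, adjusted p = 5.69e-11 by limma, n = 3). Ifngr1, the chain that binds IFN-γ and on which Jak1 sits, fell to 8.35 ± 0.805 FPKM in Model, against 48.6 ± 2.93 FPKM in Control (log2 fold change -2.41, adjusted p = 4.23e-09 by limma). Of 20 ligands 13 were tested, and 11 rose and 0 fell in Model by limma (11 at an unadjusted p under 0.05), with a median of 2.07. This count was in large part built in by the filter, since 9 of the 13 did not pass it on Control libraries alone, 8 of which were among those called higher. With no filter 12 ligands were higher and 1 was lower. Il12b, a subunit of IL-12 and IL-23, was at 613 ± 10.3 FPKM in Model and 0.0765 ± 0.0464 FPKM in Control.

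Brakes on the pathway were called in both directions in Model, with 8 of 21 higher and 8 lower (median -0.11), and their 76.2% called in either direction was near the share of all genes. Of the 8 higher, 2 did not pass the filter on Control libraries alone, Socs1 among them. Of the 8 lower, 1 passed it only with Control libraries. Those that rose most were the cytokine-induced inhibitors: Socs1 reached 153 ± 4.22 FPKM in Model, against 0.642 ± 0.262 FPKM in Control, and Socs3 reached 101 ± 4.75 FPKM in Model, against 1.22 ± 0.130 FPKM in Control. Usp18, which blocks the type I interferon receptor, reached 166 ± 10.8 FPKM in Model, against 1.93 ± 0.0996 FPKM in Control. Pias1, Pias2 and Pias3, which inhibit STAT proteins in the nucleus, were among the genes that fell, while Pias4 was not called (0.04, adjusted p = 0.486 by limma). Of 12 partners, 3 rose and 5 fell in Model (median -0.19), which is 66.7% called and not above the share of all genes. Irf9, the DNA-binding partner of Stat2, was one that rose, at 7.41 ± 0.345 FPKM in Model and 5.33 ± 0.282 FPKM in Control (log2 fold change 0.41, adjusted p = 9.04e-05 by limma).

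Among genes known as targets of single factors, the share called in Model was 100% for the Stat2 complex and for Stat4, 81.2% for Stat3, 66.7% for Stat5 and 91.7% for Stat6, beside 76.8% of all genes. All 17 tested targets of the Stat2 complex rose (median 5.75), 15 of which passed the filter on Control libraries alone, and Mx1, an antiviral GTPase, was at 360 ± 27.5 FPKM in Model and 2.23 ± 0.0848 FPKM in Control. Of 16 tested Stat3 targets 11 rose and 2 fell (median 1.34), with Il1rn, the IL-1 receptor antagonist, at 161 ± 15.1 FPKM in Model and 3.82 ± 0.456 FPKM in Control. Of 6 tested Stat4 targets 3 rose and 3 fell (median 0.35), and of 6 tested Stat5 targets 4 rose and 0 fell by limma (median 0.76, 4 at an unadjusted p under 0.05). Of the genes that rose, 2 on the Stat4 list, 1 on the Stat5 list and 3 on the Stat6 list, Ccl22 among them, did not pass the filter on Control libraries alone. Of 12 tested Stat6 targets 5 rose and 6 fell (median -0.53), and 2 of the 6 passed the filter only with Control libraries. Mrc1, the mannose receptor of alternatively activated macrophages, fell to 8.79 ± 1.179 FPKM in Model, against 92.5 ± 6.45 FPKM in Control, and Pparg, a lipid-sensing nuclear receptor that passed the filter only with Control libraries, fell to 0.357 ± 0.104 FPKM, against 10.8 ± 0.173 FPKM in Control. Ccl22, a chemokine on the same list, rose to 47.1 ± 4.64 FPKM in Model, against 0.624 ± 0.193 FPKM in Control. Many of these genes also answer to other factors, and some stand on more than 1 list.

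**Figure D4:**
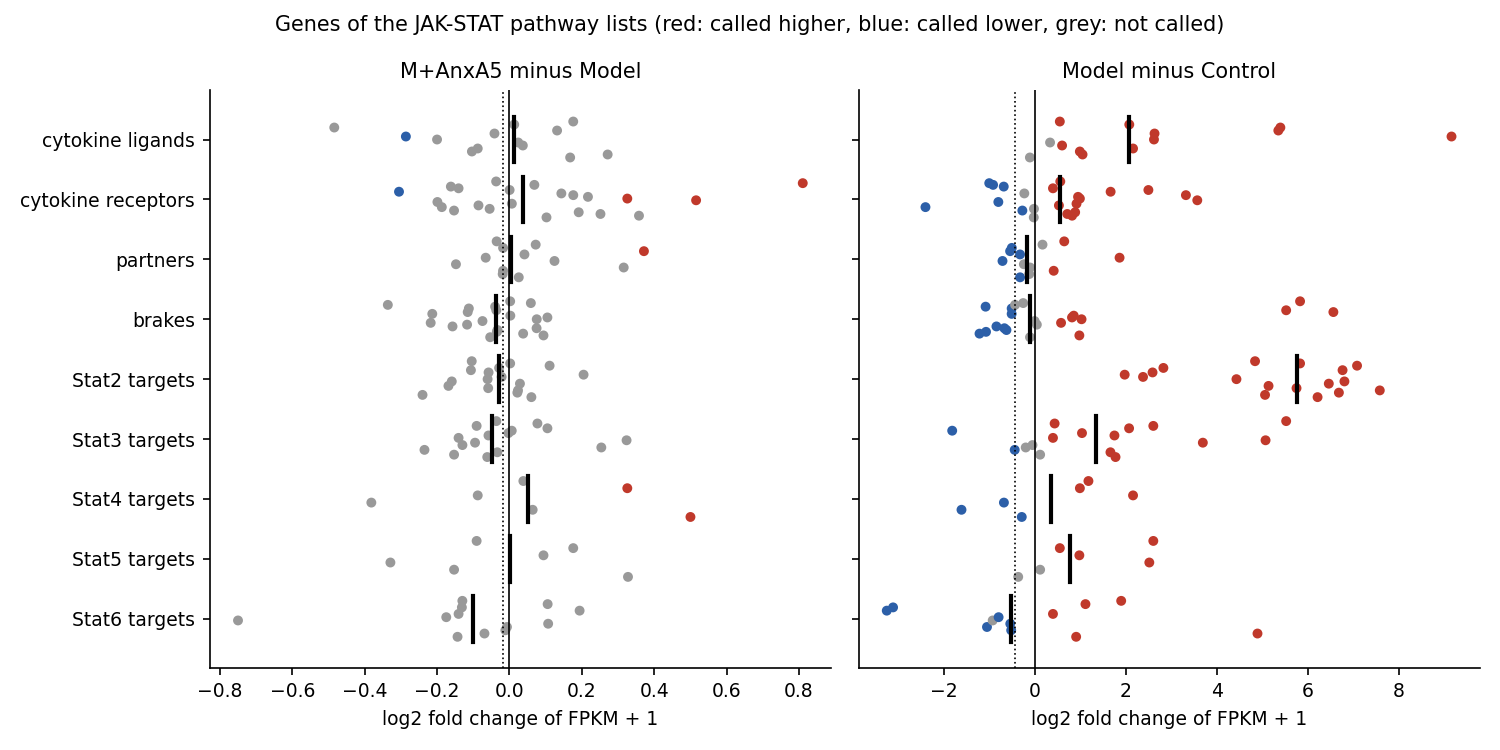
Log2 fold change of FPKM + 1 of each tested gene (points) on the lists of ligands, receptors, partners, brakes and targets, for M+AnxA5 minus Model (left) and Model minus Control (right); thick bars are list medians, the dotted line is the median of all genes, and the horizontal scales differ. All 17 Stat2 targets lie above 0 in Model minus Control, and 7 genes are coloured as called in M+AnxA5 minus Model.

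With AnxA5, 7 genes of these lists were called, of which Il12rb2 is on 2 lists. The background in M+AnxA5 against Model was 2.76% of all genes called, 1.95% higher and 0.815% lower. Called were 18.2% of the 22 tested receptors, 33.3% of the 6 tested Stat4 targets, 8.33% of the 12 partners and 7.69% of the 13 tested ligands. These shares rest on few genes, in lists chosen with earlier results known, and were not tested against the background. Of the receptors 3 were higher and 1 lower than in Model (median 0.04), of the ligands 0 higher and 1 lower (median 0.01), and of the partners 1 higher and 0 lower (median 0.00). Of the Stat4 targets 2 were higher (median 0.05). The brakes had 0 of 21 called by limma (3 at an unadjusted p under 0.05, median -0.04), the Stat2 targets 0 of 17 (3 at an unadjusted p under 0.05, median -0.03), the Stat3 targets 0 of 16 (2, median -0.05), the Stat5 targets 0 of 6 (1, median 0.00) and the Stat6 targets 0 of 12 (0, median -0.10). Isg15, a ubiquitin-like target of the Stat2 complex, averaged 792 ± 26.9 FPKM in M+AnxA5 and 777 ± 55.1 FPKM in Model.

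The receptor chain Il7r, which binds IL-7 and signals through Jak1, was at 64.5 ± 5.59 FPKM in M+AnxA5, 36.3 ± 2.37 FPKM in Model and 74.1 ± 6.45 FPKM in Control. It rose with AnxA5 (log2 fold change 0.81, SE 0.08, adjusted p = 0.00273 by limma) and had fallen in Model against Control (-1.01, adjusted p = 3.63e-06 by limma). Furin, a protease gene on the Stat4 list, was at 19.1 ± 0.399 FPKM in M+AnxA5, 13.2 ± 0.270 FPKM in Model and 16.5 ± 1.11 FPKM in Control, and it rose with AnxA5 by 0.50 (SE 0.05, adjusted p = 0.00273 by limma). Il7r and Furin stayed called when any 1 of the 9 libraries was left out, and without replicate 2 of every group their adjusted p was 0.0612 and 0.106.

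The other 5 calls with AnxA5 were less stable. Il12rb1 and Il12rb2, the chains of the IL-12 receptor on which Tyk2 and Jak2 sit, were higher by 0.52 and 0.33 (adjusted p = 0.0455 for each by limma). When 1 library was left out, Il12rb1 stayed called only without Model replicate 1 or M+AnxA5 replicate 1, and Il12rb2 only without Control replicate 1, with adjusted p up to 0.158 otherwise. With a replicate block the adjusted p was 0.116 for Il12rb1, 0.100013 for Il12rb2 and 0.0584 for Il23r, so none of these 3 was called. With no filter on low values or a pseudocount of 0.1 these 3 also lost their calls (adjusted p from 0.0590 to 0.137 by limma), and Il12rb1 and Il12rb2 lost theirs with TPM scaling (0.0619 and 0.120), with quantile normalization (0.0535 and 0.0516) and with only the 6 libraries compared (0.0984 and 0.0599), as did Il12rb2 with a pseudocount of 0.5 (0.0711) and Il12rb1 with no mean-variance trend (0.0509). Il23r, the specific chain of the IL-23 receptor, was lower by limma at -0.30 (adjusted p = 0.0149), at 1.56 ± 0.0396 FPKM in M+AnxA5 and 2.16 ± 0.0456 FPKM in Model, and was listed at 0 in every Control library. Its adjusted p was over 0.05 without Model replicate 2 (0.0717) and without M+AnxA5 replicate 1, 2 or 3 (0.0503, 0.0607 and 0.0585). Il12b was lower at -0.29 (adjusted p = 0.0109 by limma), and its adjusted p was over 0.05 without Model replicate 2 or 3 (0.0520 and 0.0503) and without M+AnxA5 replicate 3 (0.0585). Il12b was also not called with a pseudocount of 0.1 (adjusted p = 0.381 by limma), with TPM scaling (0.0930) or with quantile normalization, where its change was under the fold limit at -0.26. Sh2b2, an adaptor of JAK kinases, was higher by 0.37 (adjusted p = 0.0454 by limma) and stayed called only without M+AnxA5 replicate 2 when 1 library was left out, with adjusted p up to 0.158 otherwise. It was also not called with no filter (0.114), TPM scaling (0.0814) or only the 6 libraries compared (0.0884).

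Genes whose pattern was most like that of a member were found by Pearson's r of log2(FPKM + 1) over the 9 libraries, as a description in which the 3 groups dominate. The nearest to Jak2 were Ptgs2os2 (0.9995), Hif1a and Birc3 (0.9994 each). The nearest to Stat2 were Herc6, Rnf213 and Tspo (0.9998 each), and Herc6 averaged 44.6 FPKM in M+AnxA5, 47.0 FPKM in Model and 2.92 FPKM in Control. The nearest to Tyk2 were Itgal (0.9983), Ms4a6c (0.9977) and Tlr1 (0.9975). Like Tyk2, all had a lower mean in M+AnxA5 than in Model, which their choice by likeness over these same libraries favoured. It is no support for a change of Tyk2, which was not called. Itgal averaged 154 FPKM in M+AnxA5, 190 FPKM in Model and 60.1 FPKM in Control. The nearest to Jak1 were Acss1 (0.972), Sh3glb1 (0.9677) and Mink1 (0.9675), and Acss1 averaged 9.503 FPKM in M+AnxA5, 5.93 FPKM in Model and 4.67 FPKM in Control. For Stat3 they were H2-Q7, H2-T22 (0.9994 each) and Mertk (0.9993), for Stat6 Mrpl49, Mrps14 and Akr1e1 (0.9969, 0.9957 and 0.9956), and for Stat5b, whose groups overlapped, Fam109a reached only 0.9601.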

How the data were processed

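Strand-marked libraries of poly(A) RNA were read from both ends. The authors deposited 1 table of FPKM per gene and library, computed by a sequencing company. The submitters' processing notes name cutadapt 1.9, STAR, StringTie 2.1.6, DESeq2, edgeR and mm10, with no role or order. FPKM is a share of a library, so a large rise of some genes lowers the values of others.

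Groups were taken from the labels. On log2(FPKM + 1), limma 3.58.1 (R 4.3.3) fitted 9 libraries in 3 groups with no block and empirical Bayes with trend. A gene was tested where 3 or more libraries reached 1 FPKM, and intervals are 95% moderated intervals. The code was tested on simulated data. Calls numbered 322 in M+AnxA5 against Model, 8949 in Model against Control and 9031 in M+AnxA5 against Control. Alternatives changed the pseudocount, the filter, the scaling, the empirical Bayes step, the libraries fitted, the replicate block or the fold limit, or left out each library, in which case a group of 2 was assumed to vary like the others. Leaving out replicate 2 of every group was added after the data were seen.

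The members and lists were chosen with earlier results of these data known. All 9 members were described. From each list, up to 4 called genes with the lowest adjusted p, or otherwise the 2 with the highest mean, could be named, and not all were printed. Pias1, Pias2, Pias3, Pias4, Irf9, the Control comparisons of Il7r and Furin, and single cell type markers were named after their values were seen. The 3 genes most correlated with a member were found for members whose mean reached 5 FPKM in any group. Some genes' results are not given. Gene coordinates came from GENCODE M21 and promoters from RefSeq, both on GRCm38, and coding sequences were the longest open reading frames of GENCODE transcripts.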

Additional observations from a re-analysis of the deposited data

How the results depend on the processing

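Of the 9 members, 6 were called in Model against Control and 6 in M+AnxA5 against Control, and over the alternatives these counts ranged from 5 to 7 in both. Jak2, Stat2, Stat3 and Tyk2 were called higher against Control under all 23 alternatives, and Stat4 under the 22 that could be run. Stat4 and Stat5a have no value with a filter of 5 FPKM. In M+AnxA5 against Model, 0 members were called, except that Jak1 made it 1 with no fold limit. Stat4, at most 1.71 FPKM in any library, rests on the fewest fragments per kb of the members, and an effect of depth on its values was not tested.

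The median of all genes in Model minus Control was -0.45, with upper-quartile scaling it was -0.24 and with quantile normalization -0.10, and calls there were 1925 higher and 7024 lower, 2524 and 5325 with upper-quartile scaling, and 2946 and 4209 with quantile normalization. With TPM scaling the median stayed at -0.45. Some members with small changes had another sign or call under these scalings, and not always in the direction of the median. Stat5b in Model minus Control was 0.021 with TPM scaling, 0.18 with upper-quartile scaling and 0.25 with quantile normalization, and in M+AnxA5 minus Control it was 0.013, 0.18 and 0.25, none of them called. Jak1 in Model minus Control was -0.0057 with quantile normalization and 0.32, called, with upper-quartile scaling. Stat5a was called higher there with upper-quartile scaling (0.32) and quantile normalization (0.57), and in M+AnxA5 minus Control with quantile normalization (0.49). Stat6 lost its call with TPM scaling (-0.24 in Model and -0.25 in M+AnxA5 against Control), upper-quartile scaling (-0.07 in both) and a fold limit of 1.5, and kept it with quantile normalization (-0.42 in Model and -0.44 in M+AnxA5 against Control). Jak1 in M+AnxA5 minus Control was called higher with a pseudocount of 0.1 (0.27) or 0.5 (0.26), TPM scaling (0.34), upper-quartile scaling (0.51), no fold limit, and without Control replicate 3 (0.28) or M+AnxA5 replicate 1 (0.28). In M+AnxA5 minus Model, Stat5b was 0.0021 with quantile normalization and 0.019 without replicate 2 of every group.

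Leaving out 1 library at a time gave -0.020 to 0.031 for Stat5b, -0.023 to 0.017 for Stat6 and -0.017 to 0.047 for Stat3 in M+AnxA5 minus Model, and -0.00045 to 0.069 for Stat5a in M+AnxA5 minus Control. Without the library that moves the count most, M+AnxA5 replicate 3, 121 genes were called with AnxA5 in place of 322, against 140 without Model replicate 2, 187 without Model replicate 3 and 160 without M+AnxA5 replicate 2, and 11 were called without replicate 2 of every group. With no filter on low values 167 were called and with a fold limit of 1.5 there were 79. The cause was not tested.

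Whether the replicate numbers pair the samples is not given in the sources used here, and the main fit used no pairing. Deviations of same-numbered libraries correlated at 0.123, 0.086 and 0.0611 between M+AnxA5 and Model, and at 0.0397 to 0.206 between Model and Control. Those of differently numbered libraries correlated at -0.0876 to 0.00101 between M+AnxA5 and Model, and at -0.232 to 0.0993 between Model and Control. In M+AnxA5 and Model every library correlated best with its own number, as a hint from the data only. With a replicate block, 0 members were called in M+AnxA5 against Model, 6 in Model against Control and 6 in M+AnxA5 against Control, and 185 of all genes were called with AnxA5.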
